A study of Mus musculus with 6 samples.

Results

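The genes of cholesterol synthesis, sterol transfer and sterol sensing were described here across 6 RNA-seq libraries, 3 labelled AAV-PDGF-D and 3 labelled AAV-GFP. Members were taken by symbol from a list of 28 genes, and 25 of them were analysed among the 16191 rows of the expression table. NSDHL, EBP and MBTPS2, the other listed genes, were not analysed here. The members were selected on their FPKM difference between these 2 labels, which was already known, so the fold changes and calls of its members describe the table and are no independent test.

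According to the labels and the methods of the study, both groups were C57BL/6J mice, bought at 6 to 8 weeks of age, whose RPE-choroid complex was taken 4 weeks after subretinal injection of an adeno-associated virus. The AAV-PDGF-D vector carried the human PDGF-D gene under the human VMD2 promoter, which is active in the retinal pigment epithelium (RPE), and the AAV-GFP control vector carried GFP. The study compared the 2 groups to find what PDGF-D changes in RNA. The labels do not say whether libraries with the same label are from different mice, so p-values measure only the spread between these libraries.

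The rows of the deposited table are human genes, although the labels name mouse tissue. Of the rows, 15504 carry a human Ensembl ID with a symbol and the other 687 are given as new genes of human origin. The row of human PDGFD had 5.24, 6.28 and 6.36 FPKM in the libraries labelled AAV-PDGF-D, against 6.87, 6.56 and 6.86 FPKM in those labelled AAV-GFP, and so was not higher with the label that names it. Of 12 marker genes of the RPE, 8 were at 1 FPKM or more in every library. However, RPE65, the isomerase of the visual cycle, averaged 0.869 FPKM, BEST1 0.424 FPKM and LRAT 0.145 FPKM. PTPRC, the CD45 antigen of leukocytes, averaged 0.0315 FPKM and PECAM1, an endothelial antigen, 0.167 FPKM, but KDR, an endothelial receptor, averaged 9.06 FPKM and CSF1R, a macrophage receptor, 1.08 FPKM. HBA1, a hemoglobin chain, reached 219 FPKM in replicate 3 of AAV-PDGF-D and 168 FPKM in replicate 1 of AAV-GFP, with no more than 0.319 FPKM in the other 4 libraries. The libraries are therefore called by their labels, and no value is assigned to a mouse tissue. FPKM (fragments per kilobase of gene, scaled to the mapped fragments of the library) accounts for gene length, so levels can be set side by side between genes, but how many reads each library had is unknown.

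Cells build cholesterol from acetyl-CoA in a chain of enzymes. The mevalonate part of the chain makes isoprenoid units and joins them to farnesyl diphosphate, and the sterol arm turns that into squalene, lanosterol and then cholesterol. When sterol in the endoplasmic reticulum is low, the SCAP protein escorts the SREBP transcription factors to the Golgi, the site-1 and site-2 proteases release them, and they switch on the genes of the pathway. When sterol is plentiful, the INSIG proteins hold SCAP back. In the eye, the RPE handles cholesterol from its own synthesis, from lipoproteins and from the photoreceptor membrane that it engulfs.

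Of the 25 members, 17 were called higher with the label AAV-PDGF-D and 0 were called lower. Calls were made from limma with the limits on adjusted p (0.1 or less), fold change (1.5 or more, here on the log2(FPKM + 0.1) scale) and mean FPKM (1 or more) that the study set on the output of another tool. Over the 11444 rows that reached this mean, 2.01% were called higher and 1.75% lower, and nothing is read from the members' share, since this contrast chose them. With no fold threshold, 19 members passed the adjusted p as higher and 0 as lower, beside 2396 and 1341 of the 11444 rows. All 25 members passed the filter on low values and were at 1 FPKM or more in every library, so none entered through its higher group alone. Their median log2 fold change was 0.85, beside 0.04 over rows averaging 1 FPKM or more. The 17 called members were 1.5 to 2.48 times as high in mean FPKM with the label AAV-PDGF-D, while the 8 others lay between 0.904 and 1.16 times. All 17 called members and 3 of the 8 others had every AAV-PDGF-D library above every AAV-GFP library, where 27.3% of the rows did. SCAP and MBTPS1 had every AAV-PDGF-D library below every AAV-GFP library, as did 16.4% of the rows. RNA from a whole sample cannot tell fewer cells of a type from less RNA per cell.

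**Figure D1:**
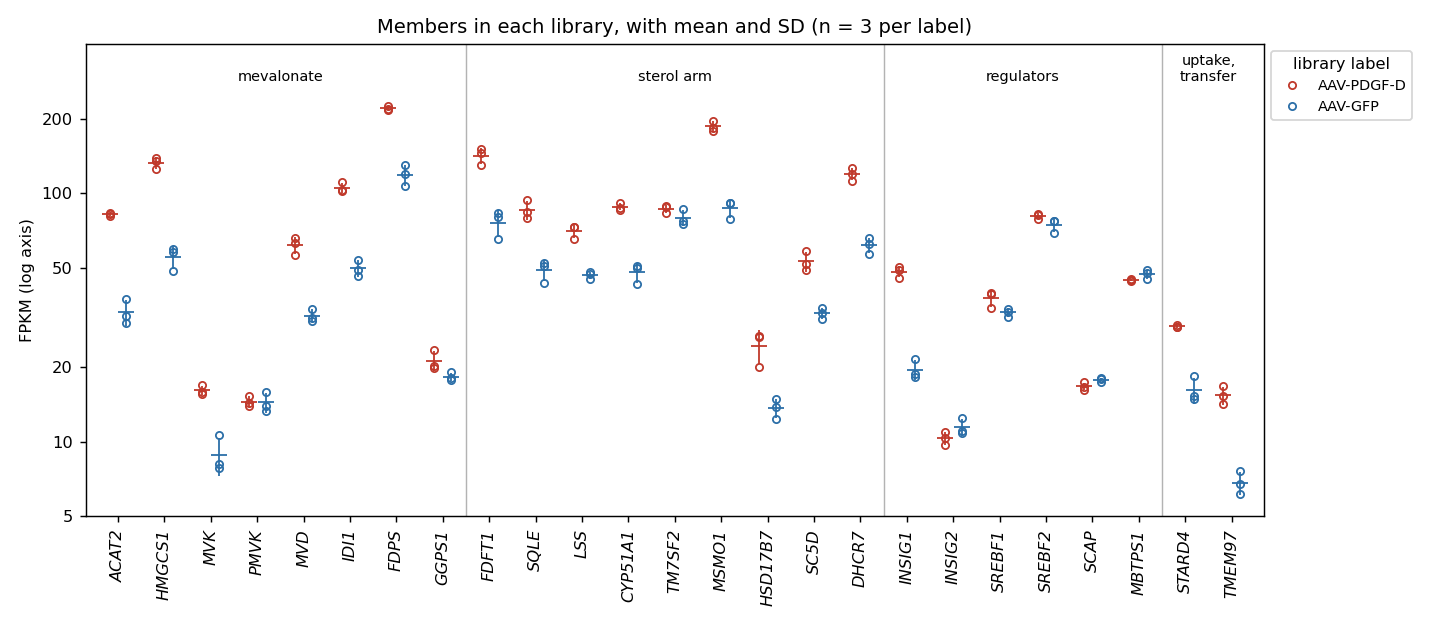
FPKM on a log axis of the 25 members in each library, by pathway step, with AAV-PDGF-D libraries in red and AAV-GFP libraries in blue (circles are libraries, bars the mean and SD, n = 3 each). The enzymes lie apart between the labels except PMVK and TM7SF2, which overlap, and GGPS1, which differs little, while INSIG1 is the regulator that lies far apart.

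In the mevalonate part, 6 of 8 members were called higher and 0 lower, with a median log2 fold change of 0.92. ACAT2, the cytosolic thiolase that joins acetyl-CoA units, had 81.4, 83.2 and 82.5 FPKM with the label AAV-PDGF-D, against 32.1, 37.7 and 30 FPKM with the label AAV-GFP. HMGCS1, the synthase that makes HMG-CoA, had 125, 135 and 139 FPKM in AAV-PDGF-D libraries, against 59.7, 58.3 and 48.7 FPKM in AAV-GFP libraries. For both genes the lowest AAV-PDGF-D library was over 2 times the highest AAV-GFP library, with a ratio of 2.16 for ACAT2 and 2.09 for HMGCS1. Their log2 fold changes were 1.31 (standard error 0.08) for ACAT2 and 1.26 (standard error 0.08) for HMGCS1. ACAT2 shares its locus with TCP1, a chaperonin subunit on the other strand, and the sources used here do not say that reads were counted by strand. TCP1 averaged 135 ± 3.1 FPKM with the label AAV-PDGF-D and 116 ± 4.28 FPKM with the label AAV-GFP (SD, n = 3 each), a log2 fold change of 0.22.

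MVK and PMVK, the kinases that add phosphate to mevalonate in turn, differed from each other. MVK had 15.8, 16.9 and 15.6 FPKM in AAV-PDGF-D libraries, against 7.82, 10.6 and 8.11 FPKM in AAV-GFP libraries, with no overlap. PMVK had 13.9, 15.3 and 14.3 FPKM in AAV-PDGF-D libraries, against 13.9, 13.3 and 15.9 FPKM in AAV-GFP libraries, which overlapped. The log2 fold change was 0.87 for MVK (standard error 0.11) and 0.01 for PMVK (95% interval -0.17 to 0.20). PMVK's sign turned negative in each of the 4 other scalings (TPM, median of ratios, quantile, and the geometric mean of 69 nuclear genes of the respiratory chain), between -0.13 and -0.02, so no direction is given for it. MVD, which removes carbon dioxide to give the isoprenoid unit, had 65.9, 63.3 and 56.6 FPKM with the label AAV-PDGF-D, against 31.6, 34.3 and 30.6 FPKM with the label AAV-GFP. IDI1, the isomerase of that unit, had 102, 103 and 111 FPKM with AAV-PDGF-D, against 49.3, 54.1 and 46.6 FPKM with AAV-GFP. MVD and IDI1 rose by 0.94 and 1.08 on the log2 scale. IDI2, a copy that lies beside IDI1, averaged 5.05 ± 0.716 FPKM with the label AAV-PDGF-D and 4.22 ± 0.216 FPKM with the label AAV-GFP (SD, n = 3 each).

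At farnesyl diphosphate the chain branches, and the members of the 2 branches moved by different amounts. FDPS, which makes farnesyl diphosphate and was the most abundant member, had 218, 218 and 225 FPKM in AAV-PDGF-D libraries, against 120, 130 and 107 FPKM in AAV-GFP libraries. FDPS has pseudogene copies elsewhere in the human genome, and how reads shared with them were counted is not given. GGPS1, which lengthens farnesyl diphosphate for protein prenylation, had 19.9, 23.5 and 20.2 FPKM with the label AAV-PDGF-D, against 18.1, 19 and 17.7 FPKM with the label AAV-GFP. GGPS1 did not overlap between labels but missed the fold threshold, with a log2 fold change of 0.21 (95% interval 0.04 to 0.38) against 0.89 for FDPS. With scaling by respiratory chain genes, the log2 fold change was 0.07 for GGPS1 and 0.75 for FDPS. FDFT1, squalene synthase and the entry to the sterol arm, had 131, 144.9 and 150.5 FPKM with the label AAV-PDGF-D, against 80.1, 83.3 and 65.5 FPKM with the label AAV-GFP. Within a library, FDFT1 was 6.57, 6.17 and 7.44 times as high as GGPS1 with AAV-PDGF-D, against 4.42, 4.37 and 3.70 times with AAV-GFP. The 2 sets of ratios did not overlap, but they restate the values of the 2 genes and are no separate test.

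**Figure D2:**
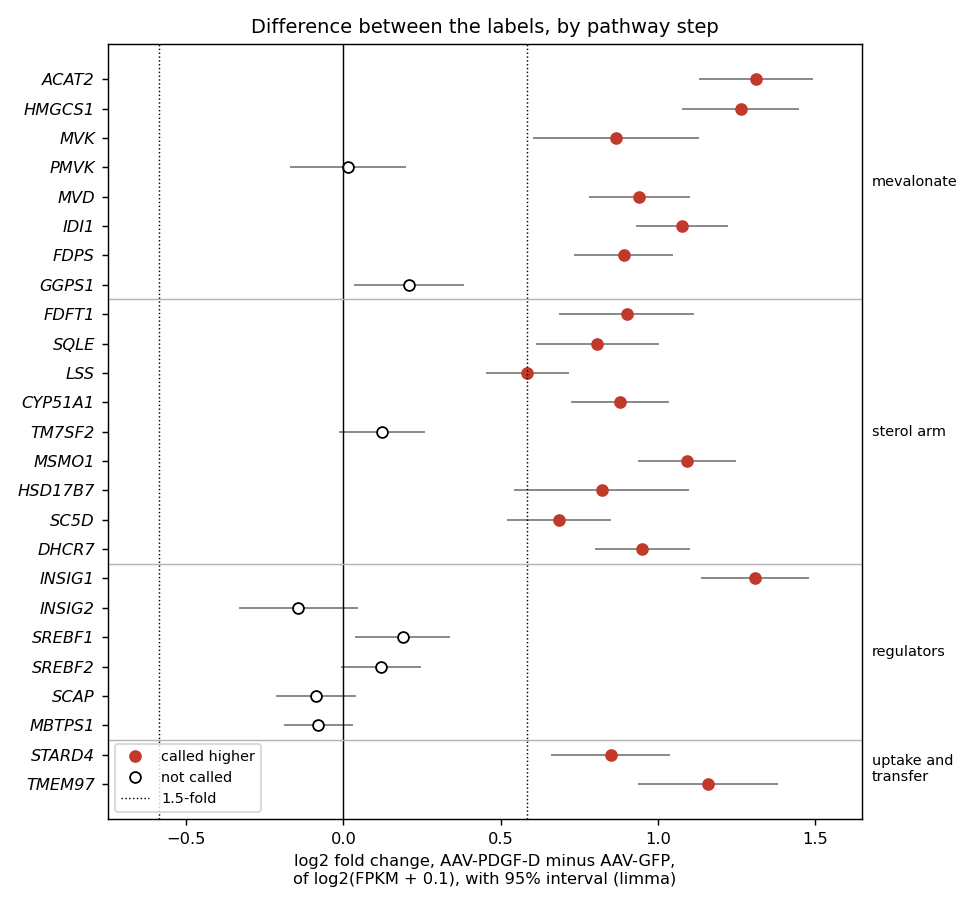
Log2 fold change of each member, AAV-PDGF-D minus AAV-GFP, on the log2(FPKM + 0.1) scale, with 95% intervals from limma and dotted lines at 1.5-fold (filled points, called higher; open points, not called; n = 3 libraries per label). ACAT2, INSIG1 and HMGCS1 lie farthest to the right, LSS lies on the threshold, and 5 of the 6 regulators lie between -0.14 and 0.19.

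In the sterol arm, 8 of the 9 members analysed were called higher and 0 lower, with a median log2 fold change of 0.82. SQLE, the squalene epoxidase that controls flow into sterols, had 79.8, 83.8 and 94.4 FPKM in AAV-PDGF-D libraries, against 51.2, 52.5 and 43.7 FPKM in AAV-GFP libraries. LSS, which closes the rings to lanosterol, had 73.1, 73.1 and 65.5 FPKM with the label AAV-PDGF-D, against 45.2, 48.1 and 47.5 FPKM with the label AAV-GFP. SQLE rose by 0.81 on the log2 scale and LSS by 0.59, the smallest rise among the called members. The call of LSS lay at the threshold and was lost in 8 of 18 alternatives with a log2 fold change of 0.44 to 0.58, among them leaving out AAV-PDGF-D replicate 1, AAV-PDGF-D replicate 2 or AAV-GFP replicate 1 (0.56 each). LSS libraries did not overlap, and its 95% interval was 0.45 to 0.72.

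The enzymes that strip methyl groups from lanosterol moved together. CYP51A1, the lanosterol demethylase, had 85.9, 87.6 and 91.5 FPKM in AAV-PDGF-D libraries, against 51.1, 49.9 and 43.2 FPKM in AAV-GFP libraries. MSMO1, the methyl sterol oxidase and after FDPS the most abundant member, had 179, 184 and 196 FPKM in AAV-PDGF-D libraries, against 91.5, 91.9 and 78.8 FPKM in AAV-GFP libraries. HSD17B7, the ketosteroid reductase that follows in the same complex, had 19.9, 26.5 and 26.7 FPKM in AAV-PDGF-D libraries, against 14.8, 13.8 and 12.4 FPKM in AAV-GFP libraries. None of the 3 overlapped between the labels, and AAV-PDGF-D replicate 1 of HSD17B7 lay below its partners. The log2 fold change was 1.09 (standard error 0.07) for MSMO1, 0.88 (standard error 0.07) for CYP51A1 and 0.82 (standard error 0.12) for HSD17B7, whose standard error was the largest among the called members. HSD17B7 has pseudogene copies with which it may share reads.

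TM7SF2 was the only sterol arm member that was not called. It encodes a sterol reductase that acts after CYP51A1, and had 88.1, 88.7 and 83.3 FPKM in AAV-PDGF-D libraries, against 75.3, 77.5 and 86.5 FPKM in AAV-GFP libraries. AAV-GFP replicate 3 of TM7SF2 reached into the AAV-PDGF-D range, and the log2 fold change was 0.12 (95% interval -0.02 to 0.26), or -0.02 with scaling by respiratory chain genes. LBR, a protein of the inner nuclear membrane with the same reductase activity, had 27.7, 28.5 and 30.6 FPKM with the label AAV-PDGF-D, against 21.4, 22.1 and 19.3 FPKM with the label AAV-GFP. LBR was chosen after its values were seen. It passed the adjusted p but not the fold threshold, at 0.47 on the log2 scale (adjusted p = 0.00438 from limma, standard error 0.07), and TM7SF2 stayed the more abundant of the pair, with LBR at 0.314, 0.321 and 0.367 of its FPKM in AAV-PDGF-D libraries and at 0.285, 0.285 and 0.223 in AAV-GFP libraries.

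The last steps of the arm were also higher. SC5D, the lathosterol desaturase, had 51.8, 49.4 and 58.6 FPKM with the label AAV-PDGF-D, against 34.6, 33.1 and 31.3 FPKM with the label AAV-GFP. DHCR7, the reductase that turns dehydrocholesterol into cholesterol, had 113, 126 and 120 FPKM with the label AAV-PDGF-D, against 62.8, 65.9 and 57 FPKM with the label AAV-GFP. Both were free of overlap, with log2 fold changes of 0.69 (standard error 0.07) for SC5D and 0.95 (standard error 0.07) for DHCR7. The call of SC5D was lost with scaling by respiratory chain genes, at 0.55. Added up over the 17 enzymes of both parts, the FPKM were 1463, 1522 and 1551 in AAV-PDGF-D libraries, against 839, 874 and 771 in AAV-GFP libraries, or 0.286%, 0.294% and 0.304% of the table's sum against 0.167%, 0.175% and 0.153%.

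Among the 6 regulators analysed, INSIG1 alone was called. INSIG1, which holds SCAP in the endoplasmic reticulum and is itself an SREBP target, had 45.7, 50.6 and 49 FPKM in AAV-PDGF-D libraries, against 18.8, 21.6 and 18.2 FPKM in AAV-GFP libraries. INSIG2, its paralog, had 10.4, 11 and 9.67 FPKM in AAV-PDGF-D libraries, against 11, 10.8 and 12.5 FPKM in AAV-GFP libraries. INSIG1 was far from overlapping, while INSIG2 overlapped and was the least abundant member. The log2 fold change was 1.31 (standard error 0.07) for INSIG1 and -0.14 (95% interval -0.33 to 0.05) for INSIG2. The ratio of INSIG1 to INSIG2 within a library was 4.4, 4.61 and 5.07 with AAV-PDGF-D, against 1.71, 1.99 and 1.46 with AAV-GFP.

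The genes of the SREBP factors themselves differed little. SREBF2, whose product drives the cholesterol genes, had 82.7, 82.1 and 78.9 FPKM in AAV-PDGF-D libraries, against 77.3, 77.7 and 69.5 FPKM in AAV-GFP libraries. SREBF1, whose products drive mainly fatty acid genes, had 39.8, 39.4 and 34.6 FPKM in AAV-PDGF-D libraries, against 33.4, 34.4 and 31.9 FPKM in AAV-GFP libraries. Both lay just clear of overlap, with a lowest AAV-PDGF-D library 1.01 times the highest AAV-GFP library, and neither reached 1.5-fold. The log2 fold change was 0.12 (95% interval -0.01 to 0.25) for SREBF2, or -0.02 with scaling by respiratory chain genes, and 0.19 (95% interval 0.04 to 0.34) for SREBF1, or 0.05 with that scaling. SREBF2 was 2.08, 2.09 and 2.28 times as high as SREBF1 in AAV-PDGF-D libraries and 2.32, 2.26 and 2.18 times in AAV-GFP libraries, so these ratios overlapped. FPKM of a gene does not show how much SREBP protein is cleaved.

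SCAP, the escort of SREBP, had 16.2, 17.4 and 16.6 FPKM with the label AAV-PDGF-D, against 18, 17.5 and 17.8 FPKM with the label AAV-GFP. MBTPS1, the site-1 protease, had 44.3, 44.8 and 45.1 FPKM with the label AAV-PDGF-D, against 49, 47.7 and 45.2 FPKM with the label AAV-GFP. Neither was called, and the 95% intervals of their log2 fold changes were -0.22 to 0.04 for SCAP and -0.19 to 0.03 for MBTPS1.

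**Figure D3:**
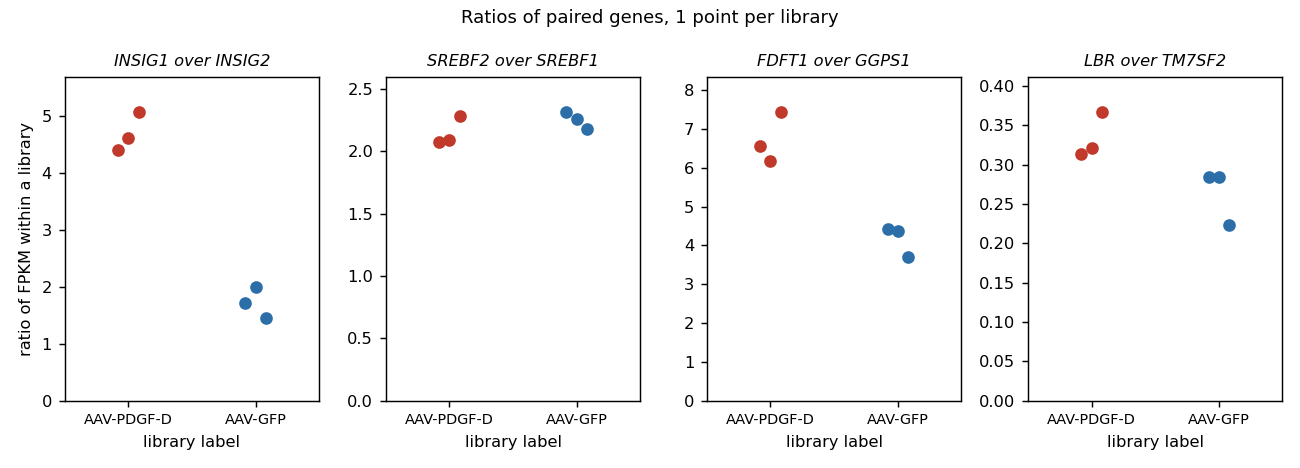
Ratio of the FPKM of 2 genes within each library, with 1 point per library, AAV-PDGF-D in red and AAV-GFP in blue. The ratios restate the values of single genes and are no separate test. The ratios of INSIG1 to INSIG2 (4.4 to 5.07 against 1.46 to 1.99), FDFT1 to GGPS1 and LBR to TM7SF2 do not overlap between the labels, and those of SREBF2 to SREBF1 do.

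Both members that act in uptake and transfer were called higher. STARD4, which carries cholesterol through the cytosol, had 29, 29.5 and 28.9 FPKM in AAV-PDGF-D libraries, against 14.9, 18.4 and 15.3 FPKM in AAV-GFP libraries. TMEM97, a membrane protein that binds the lysosomal cholesterol carrier NPC1, had 14.2, 15.2 and 16.8 FPKM in AAV-PDGF-D libraries, against 7.59, 6.73 and 6.19 FPKM in AAV-GFP libraries. They did not overlap, and the log2 fold changes were 0.85 (standard error 0.08) for STARD4 and 1.16 (standard error 0.10) for TMEM97.

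Within a label, many members deviated from their mean in the same library. AAV-GFP replicate 3 was the lowest library of its label for 14 of the 17 called members, with MVK, LSS and STARD4 as exceptions, and for 38.9% of rows averaging 1 FPKM or more. AAV-GFP replicate 2 was the highest of its label for 12 of the 17, and for 33.2% of the rows. PMVK, TM7SF2 and INSIG2, 3 of the members that were not called, had their highest AAV-GFP value in replicate 3 instead. GGPS1, SREBF1, SREBF2 and MBTPS1 were lowest there. In the other label, AAV-PDGF-D replicate 1 was the lowest library for 11 of the 17 called members, and for 41.9% of the rows. The median deviation of the 25 members from their label mean was -0.10 (log2) in AAV-GFP replicate 3 and 0.06 in AAV-GFP replicate 2, where the median over the rows was -0.01 and 0.00. Members of 1 library share its reads and scaling and are not replicates of each other. The relative spread was larger in AAV-GFP libraries for 13 of the 17 called members and for 5 of the 8 others. Among the called members MVD, LSS, HSD17B7 and SC5D went the other way. The share over all rows was not computed, so nothing is read from these counts. ACAT2 and STARD4 were among the strongest cases. ACAT2 had a coefficient of variation of 1.13% with the label AAV-PDGF-D and 11.96% with the label AAV-GFP. STARD4 had one of 1.04% with AAV-PDGF-D and 12.02% with AAV-GFP.

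**Figure D4:**
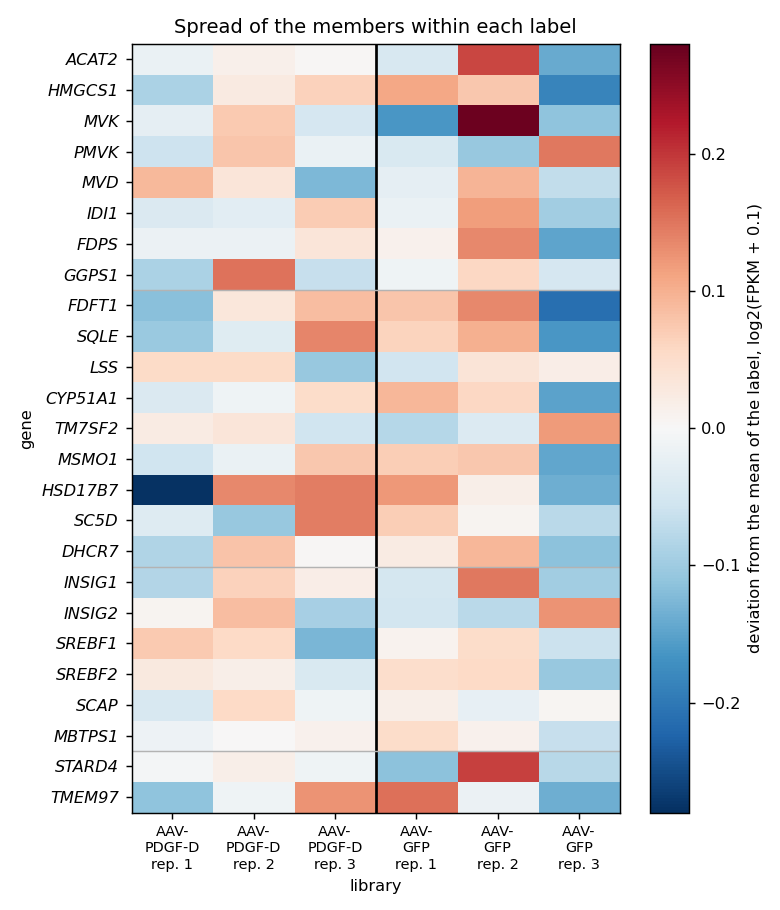
Deviation of each member in each library from the mean of its label, on the log2(FPKM + 0.1) scale (red above, blue below the mean; AAV-PDGF-D libraries left, AAV-GFP libraries right). AAV-GFP replicate 3 is blue for most enzymes and red for PMVK, TM7SF2 and INSIG2.

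Genes of neighbouring steps were read from 7 lists of 80 genes that hold no member, of which 78 were analysed. The lists were drawn up with earlier results of these data known. Called genes were named for their large changes, so their adjusted p-values describe the table and are no independent test. Of these, 10 were called higher and 0 lower. Without the fold threshold, 39 passed as higher and 5 as lower, beside 2396 and 1341 of the 11444 rows averaging 1 FPKM or more. The calls lay in the lists of acetyl-CoA and electron supply, of sterol enzyme partners and of other SREBP targets. Of 10 genes for acetyl-CoA and electron supply, 3 were called higher and 0 lower, with a median log2 fold change of 0.38. CYB5B, an outer mitochondrial membrane cytochrome, had 68.6, 66.2 and 69.1 FPKM with the label AAV-PDGF-D, against 34, 39.1 and 32.3 FPKM with the label AAV-GFP (log2 fold change 0.95, adjusted p = 0.000518 from limma). IDH1, a cytosolic source of NADPH, averaged 72.4 ± 2.13 FPKM with the label AAV-PDGF-D and 38.9 ± 4.44 FPKM with the label AAV-GFP (SD, n = 3 each; adjusted p = 0.00104 from limma). ACLY, which makes cytosolic acetyl-CoA from citrate, averaged 144 ± 1.63 FPKM with the label AAV-PDGF-D and 90.2 ± 9.37 FPKM with the label AAV-GFP (SD, n = 3 each; adjusted p = 0.00154 from limma), and its call was lost with scaling by respiratory chain genes, at a log2 fold change of 0.54. CYB5R3, the reductase of cytochrome b5 and the most abundant gene of this list, was not called (log2 fold change -0.08, 95% interval -0.20 to 0.04).

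Of 4 partners of the sterol enzymes analysed, ERG28, which tethers the demethylation enzymes in yeast, was called higher and 0 were called lower. ERG28 averaged 22.5 ± 1.93 FPKM with the label AAV-PDGF-D and 14.5 ± 1.49 FPKM with the label AAV-GFP (SD, n = 3 each; log2 fold change 0.63, adjusted p = 0.00434 from limma). Its call was lost with scaling by respiratory chain genes (0.49) and without AAV-GFP replicate 3 (0.57). Of 9 other known SREBP targets, 6 were called higher and 0 lower, with a median of 0.85. ELOVL6, a fatty acid elongase, had the largest change, at 22.4 ± 0.752 FPKM with the label AAV-PDGF-D and 8.66 ± 2.62 FPKM with the label AAV-GFP (SD, n = 3 each; log2 fold change 1.40, adjusted p = 0.0027 from limma). SCD, a fatty acid desaturase, and ACSL3, which activates fatty acids, rose by 1.05 and 0.99 on the log2 scale (adjusted p = 0.000538 and 0.000619 from limma). MMAB, a cobalamin enzyme whose gene shares its promoter region with MVK in mammals and which was chosen after its values were seen, rose by 0.85 (adjusted p = 0.00124 from limma), beside 0.87 for MVK.

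No gene was called among 15 of the isoprenoid branches, 10 of sterol-regulated degradation, 10 of SREBP traffic and turnover, and 20 of endosomal uptake, transfer and storage. With 2.01% of rows called higher and 1.75% lower, 0 calls in lists of this size does not set them apart from the rows. Without AAV-PDGF-D replicate 1, NCEH1, a hydrolase of cholesteryl esters chosen after its values were seen, was called higher (log2 fold change 0.63, against 0.56 with all libraries). The median log2 fold change was 0.18 for the isoprenoid branches, 0.12 for degradation, 0.19 for SREBP traffic and 0.05 for uptake, transfer and storage. The adjusted p alone was passed, in either direction, by 9 genes of uptake, transfer and storage and by 5 genes of each of the other lists, and by 32.7% of rows averaging 1 FPKM or more. The most abundant genes of these lists had log2 fold changes of 0.13 for DHDDS, a subunit of the dolichol synthase, 0.16 for VCP, the ATPase that extracts proteins for degradation, 0.29 for SEC23A, a coat protein of vesicles that leave the endoplasmic reticulum, and 0.04 for NPC2, which hands lysosomal cholesterol to NPC1. With scaling by respiratory chain genes the sign of DHDDS and NPC2 turned, to -0.02 and -0.10.

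**Figure D5:**
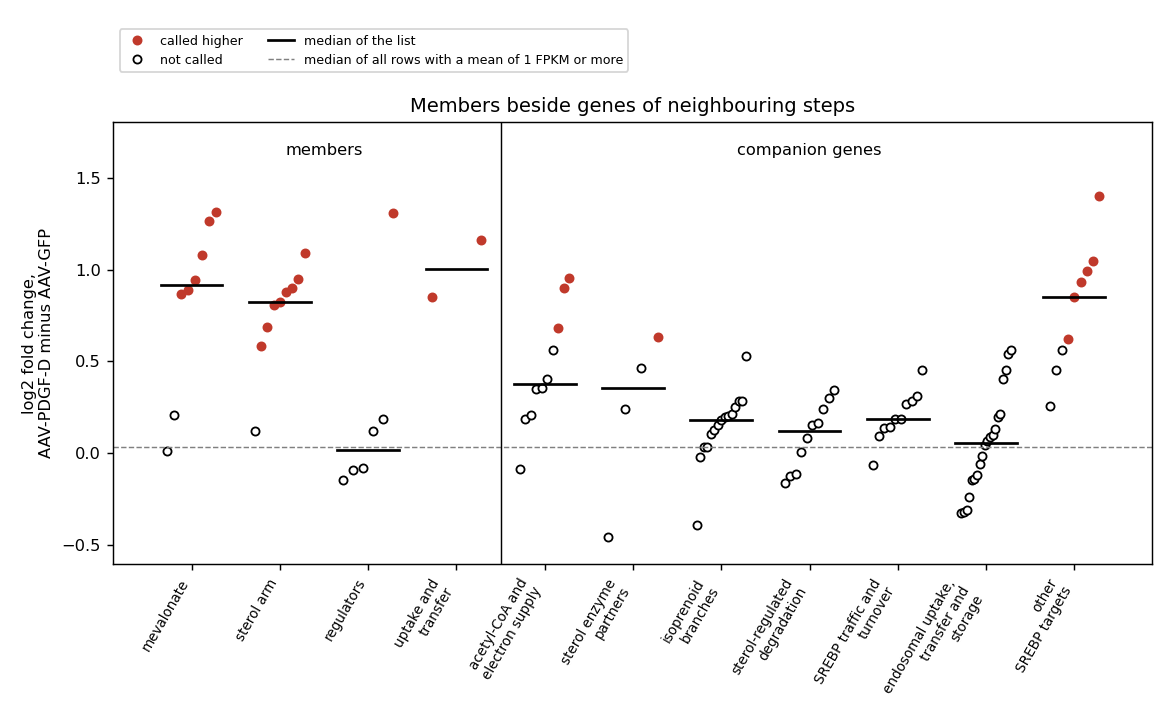
Log2 fold change, AAV-PDGF-D minus AAV-GFP, of the 25 members by step (left of the line) and of 78 genes in 7 neighbouring lists (right), with filled points for genes called higher, open points for genes not called and a bar at each list's median. The medians of the mevalonate part (0.92), the sterol arm (0.82) and other SREBP targets (0.85) stand above that of endosomal uptake, transfer and storage (0.05), and the dashed line marks the median over the rows (0.04).

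Genes of dividing cells moved with the labels too. Of 15 listed, 9 were called higher and 0 lower, beside 2.01% and 1.75% of rows averaging 1 FPKM or more. The summed level of the 15 was 106 to 108 FPKM in AAV-PDGF-D libraries and 70 to 74.5 FPKM in AAV-GFP libraries. MKI67, a defining marker of dividing cells, averaged 0.806 FPKM with the label AAV-PDGF-D and 0.18 FPKM with the label AAV-GFP. Its mean was under the 1 FPKM needed for a call. CCNA2, at 8.18 against 7.61 FPKM, overlapped between the labels, and MCM2, MCM5, PCNA and TYMS missed the fold threshold. The part of cell division in the members' values was not tested. RPE markers summed to 1442 to 1509 FPKM with the label AAV-PDGF-D and 1532 to 1598 FPKM with the label AAV-GFP. EZR, CRIM1 and SERPINF1 made up most of that sum, averaging 719, 359 and 295 FPKM over all libraries. PMEL and TYRP1, 2 of the 12, were called lower. Of the 12, 5 had every AAV-PDGF-D library below every AAV-GFP library and 2 had every one above. Over rows averaging 1 FPKM or more, 16.4% lay below and 27.3% above in this way. EZR, the most abundant RPE marker, was among the 2 above, at 742 against 696 FPKM. Markers of pericytes, smooth muscle and fibroblasts summed to 1939 to 2043 FPKM with the label AAV-PDGF-D and 2077 to 2285 FPKM with the label AAV-GFP. TAGLN made up most of that sum, at 1446 against 1545 FPKM, and overlapped between the labels. None of the 10 markers was called, but 5 had every AAV-PDGF-D library below every AAV-GFP library, as did 16.4% of rows averaging 1 FPKM or more. PDGFRB, the PDGF-D receptor, was among the 5 (log2 fold change -0.36, adjusted p = 0.00456 from limma). Of 5 leukocyte genes analysed, CSF1R was called lower, at 0.697 FPKM with the label AAV-PDGF-D and 1.46 FPKM with the label AAV-GFP. It was the only 1 of the 5 averaging 1 FPKM or more, so no other could be called. CD79A, at 0.537 against 0.257 FPKM, and CD14, at 0.314 against 0.13 FPKM, went the other way. PTPRC and C1QB were under the filter on low values. The part of these cell types in the members' values was not tested either. Without both libraries with hemoglobin, 17 members were again called higher and 0 lower. With 3 libraries per label, the smallest p an exact two-sided permutation test allows is 0.1.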

How the data were processed

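The table deposited by the authors holds 1 column of FPKM per library. The aligner STAR 2.4.2a with mm10, a mouse build, and the quantifier RSEM 1.2.29 are named by the study's methods and by the notes of the submitters, while the rows are human genes. The annotation behind the rows is not given in the sources used here. DESeq2 was the test that the authors ran, and their limits for a call were kept. No counts were used here, and read depth is unknown.

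Groups came from the labels. limma 3.58.1 in R 4.3.3 was run with a variance trend on log2(FPKM + 0.1) for 13821 rows, those whose mean reached 0.1 FPKM, with Benjamini-Hochberg adjustment over all of them. The pseudocount makes the fold changes of low genes too small. Members and lists were chosen with earlier results of these data known. All members were named, with up to 3 called genes and the most abundant gene of each neighbouring list; others are said to be chosen later, and the result of 1 gene is not reported here. A further 26 rows carry a suffix after the symbol and were kept apart, none of them a named gene. On data simulated for this comparison over 13919 rows, 49 of 50 genes changed 2-fold and 19 of 50 changed 1.5-fold were called. A 1.5-fold change lies on the call threshold, and 33 of those 50 passed the adjusted p. Of the unchanged rows, 12 were called. The simulated noise was drawn for each gene apart, so it held no shift shared by the genes of a library. Alternatives were other pseudocounts, filters, scalings, variance models and thresholds, a replicate block and left-out libraries. No sequence was printed, since the sequences at hand are of mouse genes. Python 3.11.15 and matplotlib 3.10.9 drew the figures.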

Additional observations from a re-analysis of the deposited data

How the results depend on the processing

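The count of members called higher (17) ran from 15 with scaling by respiratory chain genes to 19 without the fold threshold, and no alternative called a member lower. Leaving out 1 library gave 16 to 17. Over the 25 members and the 18 alternatives that refit the values (all but the 3 changes of threshold), 9 calls were lost (8 of LSS and 1 of SC5D), and none was gained or turned. Without the fold threshold, GGPS1 and SREBF1 were gained. Over the whole table, 230 rows were called higher and 200 lower. A pseudocount of 1 gave 148 and 110, scaling by respiratory chain genes 140 and 445, and no fold threshold 2396 and 1341. TPM scaling gave 323 lower, and no mean FPKM minimum 321 lower. With TPM scaling the minimum of 1 was set on TPM, which 12266 rows reached, against 11444 in FPKM. The share of calls that were higher was 53.5%, against 43.8% with TPM scaling, 43.4% with median-of-ratios scaling and 23.9% with scaling by respiratory chain genes, which moved the median log2 fold change over the rows from 0.04 to -0.10 and that of the members from 0.85 to 0.71. Leaving out 1 library gave 213 to 271 rows higher and 140 to 232 lower. Of the neighbouring genes, 10 were called higher and 0 lower; without the fold threshold these were 39 and 5, and with scaling by respiratory chain genes 7 and 1. The gene called lower was FAXDC2, chosen after its values were seen. The cause of these moves was not tested beyond what each setting does by construction. With the replicate number as a block, 17 members were called higher and 0 lower, and 234 rows higher and 199 lower. Deviations of same-numbered libraries correlated at -0.202, 0.00389 and -0.135, so the numbers were not taken as pairs. The block changed no call of a member. Between libraries of unlike number the correlations ran from -0.189 to 0.291. The highest was for AAV-PDGF-D replicate 3 with AAV-GFP replicate 1, both with hemoglobin. A pairing or batch across numbers was not tested. With no read counts, the precision of single values is known only from the 3 libraries of each label.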
